A study of Homo sapiens with 6 samples.

Results

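The genes described here encode amino acid transporters of 7 solute carrier (SLC) families, *SLC1*, *SLC3*, *SLC6*, *SLC7*, *SLC36*, *SLC38* and *SLC43*, in MRC5 lung fibroblasts. They were chosen by name and level alone. All protein-coding genes with a symbol of one of these families were taken, and 59 were found in the count table, of which 37 had at least 10 counts summed over the 6 libraries. The other 22 had fewer, and 14 of them had 0 counts. MRC5 is a single line of human lung fibroblasts, routinely grown in a medium to which glutamine and non-essential amino acids had been added. Cells were kept for 24 h in conditioned medium (CM) from ATII cells, here one line of human alveolar type II epithelial cells. These carried a RAS protein fused to an oestrogen receptor domain and switched on by 4-hydroxytamoxifen (4-OHT). They were cultured in another medium, with glutamine but no non-essential amino acids among the additions listed. The control group (control ATII CM, 3 libraries) received CM of these ATII cells without 4-OHT, and the other group (4-OHT ATII CM, 3 libraries) received CM of the same cells after 24 h with 4-OHT, so the fusion protein was carried by the source cells of both media and the fibroblasts themselves were not altered. An effect of RAS activation in the source cells and an effect of any 4-OHT left in the CM cannot be told apart. The comparison asks how fibroblast RNA differed with the RAS state of the epithelial cells that made the medium. Nothing in the labels says that the 3 replicates came from separate cultures, so p values measure the spread between these libraries, which may be technical.

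Amino acids cross membranes on carriers that differ in substrate, ion coupling and direction. Several SLC7 proteins work as light chains bound by a disulphide bond to the heavy chain SLC3A2 (CD98hc, also 4F2hc). They exchange 1 amino acid for another, as do SLC1A4 and SLC1A5. Many other SLC1, SLC6 and SLC38 carriers of the plasma membrane use the sodium gradient to concentrate their substrates. When amino acids run short, the kinase GCN2 raises translation of the transcription factor ATF4, which activates many of these transporter genes, while carriers of the lysosome such as SLC38A9 and SLC36A1 take part in telling mTORC1 how much amino acid is present.

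Library totals ranged from 17691849 to 26389449 counts, and the 37 transporter genes held between 0.384% and 0.398% of them. The first principal component (43.4% of the variance) separated the 2 groups. The second (23.3%) set apart control replicate 2, which also had the lowest total. Values without it are therefore given below where they change a call or a sign or move a fold change by over 1.5 times. This was done for the members named with full values except *SLC1A4*, and for the DEGs of the related lists. For other genes, fold changes without single libraries are not given. Of 16 proliferation markers, 15 fell in 4-OHT ATII CM (edgeR's quasi-likelihood test with Benjamini-Hochberg adjustment), and their summed level was 552 to 594 CPM (counts of a gene relative to the size of its library) in control ATII CM and 393 to 429 CPM in 4-OHT ATII CM. The summed level of 12 fibroblast markers was 46492 to 50362 CPM in control and 48197 to 50224 CPM in 4-OHT ATII CM, a sum made up mostly of *COL1A1* and *COL1A2*. Of the 12, *COL3A1*, *DCN*, *LUM* and *PDGFRA* rose and *VIM* fell. Of 15 epithelial markers 8 could be tested and 0 were differentially expressed genes (DEGs, adjusted p below 0.05). The keratin genes *KRT18* (53.5 and 51.8 CPM in control and 4-OHT ATII CM), *KRT8* (32.5 and 33.7 CPM) and *KRT19* (7.73 and 6.59 CPM) were measured at the highest levels of that list, whereas *EPCAM* had 48 counts over all libraries, *CDH1* 4, *SFTPC* 1 and *SFTPA1* 0. In bulk RNA, fewer cells with a transcript and less of it per cell cannot be told apart.

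The repertoire of these fibroblasts was dominated by a few carriers. To compare genes with each other, CPM were divided by the exon length in kilobases, and the values of the 37 genes were summed in each library. The sum was 649.8 ± 8.38 CPM per kb (SD, n = 3) in control and 649.9 ± 10.0 in 4-OHT ATII CM. *SLC38A2*, which encodes the sodium-coupled neutral amino acid transporter SNAT2, alone made up 32.4% of the control sum and 32.5% of the sum in 4-OHT ATII CM. *SLC1A5*, which encodes the glutamine exchanger ASCT2, made up 18.8% and 19.8%. These 2 genes together with *SLC7A5* (LAT1, a carrier of large neutral amino acids) and its partner *SLC3A2* held 69.0% in control and 69.5% in 4-OHT ATII CM, and the top 10 genes held 87.7% and 87.4%.

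By family, the 10 *SLC38* members held 43.4% of the summed level in both groups, the 6 *SLC1* members 20.5% in control and 21.4% in 4-OHT ATII CM, and the 9 *SLC7* members 19.5% and 18.5%. *SLC3A2* held 8.55% and 8.27%, the 6 *SLC6* members 5.92% and 6.24%, the 2 *SLC36* members 1.17% and 1.196%, and the 3 *SLC43* members 0.949% and 0.969%, the last including *SLC43A2*, whose counts cannot be read as its level. Most of the missing carriers belonged to the *SLC6* family of neurotransmitter and amino acid transporters, with 0 counts among others for the GABA transporters *SLC6A11* and *SLC6A13*, the noradrenaline and dopamine transporters *SLC6A2* and *SLC6A3*, the glycine transporter *SLC6A5*, and *SLC6A14*, *SLC6A18*, *SLC6A19* and *SLC6A20*. A count of 0 allows a level of up to 0.170 CPM in the smallest library and 0.114 CPM in the largest (3 counts). This limit covers counting error only, and genes under the minimum were not searched for copies on alternate contigs, which can lower a count. *SLC3A1*, the heavy chain of the cystine and dibasic amino acid exchanger of the kidney, had 2 counts in all and its light chain *SLC7A9* had 8, so *SLC3A2* was the only heavy chain gene that reached the minimum.

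**Figure D1:**
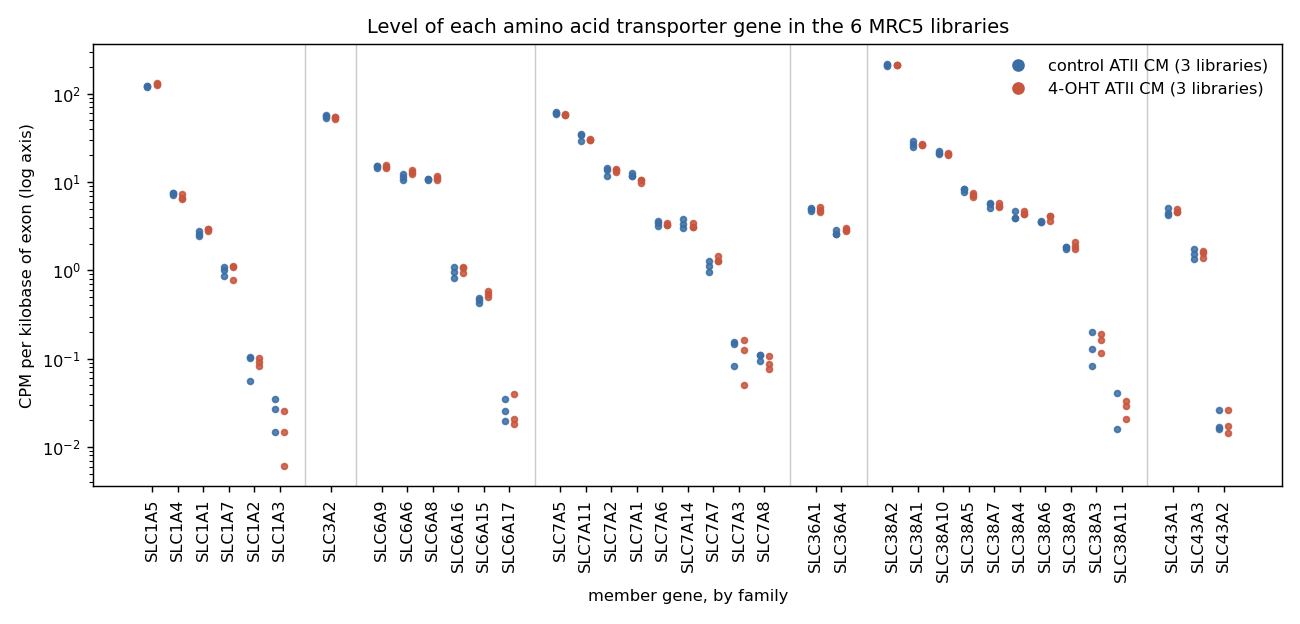
Level of each of the 37 transporter genes, grouped by family, on the y axis in CPM per kb of exon (log axis), with 1 point for each of the 6 libraries and colours for the 2 groups. A value of 0 (*SLC38A11* in control replicate 1) is not drawn. *SLC38A2* lies above 200 CPM per kb in both groups, and the 2 colours lie close together for nearly every gene.

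Few of the transporter genes differed between the 2 media, and those that did changed by small amounts. *SLC6A6*, which encodes the taurine transporter, rose by 14.2%, and *SLC7A1*, which encodes the cationic amino acid transporter CAT-1, fell by 14.6%. These 2 of the 37 members (5.41%) were DEGs, beside 5.72% of all 19072 genes tested. Upregulated DEGs were 2.95% of all genes, and downregulated DEGs 2.76%. Among genes with a mean of at least 1 CPM, which is the case for 30 members, 6.67% of members and 8.28% of all genes were DEGs. The 2 groups did not overlap in 6 members (16.2%), 4 of them higher and 2 lower in 4-OHT ATII CM, against 22.1% of all genes tested. Each of these 6 had a mean of at least 1 CPM (20% of the 30), against 27.2% of all genes at that level. An unadjusted p below 0.05 was found for 6 members (16.2%) and for 17.3% of all genes. These shares of members lie near or below those of all genes.

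Over the 37 members, 19 had a fold change above 0 and 18 below, and the median log2 fold change (4-OHT over control ATII CM) was 0.0055, against -0.0020 over all genes tested. Leaving out 1 library at a time moved the median of the members between -0.018 (without control replicate 2) and 0.025 (without 4-OHT replicate 3), so its sign turned on single libraries. Within the 30 members of at least 1 CPM the log2 fold change ranged from -0.23 (*SLC7A1*) to 0.26 (*SLC7A7*). Its median size without regard to sign was 0.065, against 0.080 over all genes of at least 1 CPM. The median was -0.094 over the 9 *SLC7* members, of which 7 had a fold change below 0. It was 0.079 over the 6 *SLC6* members, 0.028 over *SLC1*, 0.040 over *SLC38*, 0.050 over *SLC36* and 0.013 over *SLC43*, with the same limit for *SLC43A2*. In the *SLC1*, *SLC3*, *SLC36*, *SLC38* and *SLC43* families 0 members were DEGs by edgeR, and 0 by DESeq2 and limma-voom. An unadjusted edgeR p below 0.05 was found there for 2 *SLC1* and 2 *SLC38* members and for 0 of the others.

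**Figure D2:**
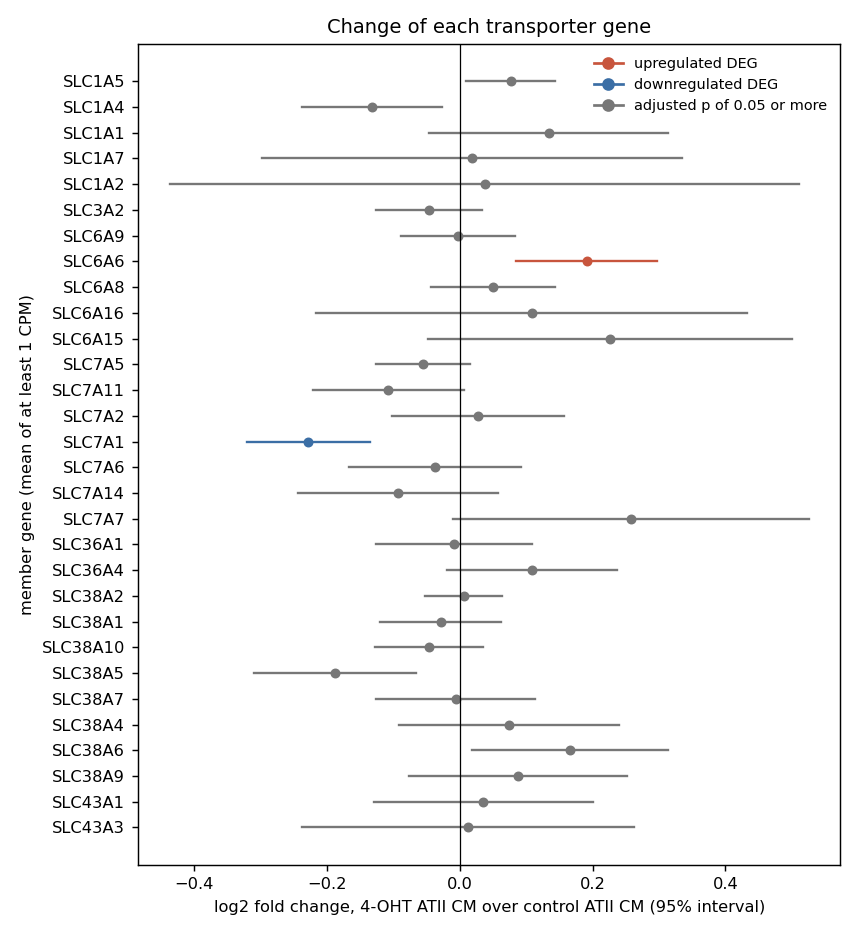
Log2 fold change of 4-OHT over control ATII CM on the x axis with its 95% interval, for the 30 transporter genes with a mean of at least 1 CPM, grouped by family, with colours for up- and downregulated DEGs. *SLC6A6* lies to the right of 0 and *SLC7A1* to the left, and of the other intervals those of *SLC1A4*, *SLC1A5*, *SLC38A5* and *SLC38A6* leave out 0.

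*SLC7A1* (ENSG00000139514, GRCh38 chr13:29509410-29595688, minus strand) encodes the main sodium-independent importer of arginine, lysine and ornithine in many cell types, and needs no heavy chain. It measured 96.8, 91.2 and 89.97 CPM in control replicates 1 to 3 and 80.1, 75.3 and 82.0 CPM in those of 4-OHT ATII CM. The lowest control library lay above the highest of 4-OHT ATII CM. The mean fell from 92.6 ± 3.65 to 79.1 ± 3.45 CPM (SD, n = 3), a log2 fold change of -0.23 (SE 0.0435, 95% interval -0.32 to -0.14, adjusted p = 0.00476 by edgeR). It was a DEG under all 13 alternative settings tried, with a log2 fold change between -0.25 and -0.19. The proliferation markers fell in the same libraries, as given above, and their part in the fall of *SLC7A1* was not tested.

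The second cationic carrier gene, *SLC7A2* (CAT-2, on chromosome 8), was not a DEG. It measured 114, 91.7 and 109.6 CPM in control and 104, 111 and 108 CPM in 4-OHT ATII CM. Control replicate 2 was the lowest of all, and the groups overlapped. Its log2 fold change of 0.027 (95% interval -0.10 to 0.16, adjusted p = 0.884) turned to -0.059 without control replicate 2 and was 0.089 without control replicate 1. Per kb of exon, the ratio of *SLC7A1* to *SLC7A2* was 0.871, 1.02 and 0.844 in control and 0.793, 0.700 and 0.781 in 4-OHT ATII CM, without overlap. The difference between the 2 fold changes was not tested, and *SLC7A3*, the third gene of the cationic group, had 36 counts in all.

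*SLC6A6* (ENSG00000131389, chr3:14402576-14489349, plus strand) measured 101, 87.7 and 94.96 CPM in control and 102, 113 and 108 CPM in 4-OHT ATII CM. The highest control library lay just below the lowest of 4-OHT ATII CM. The mean rose from 94.4 ± 6.46 to 108 ± 5.25 CPM, a log2 fold change of 0.19 (SE 0.0497, 95% interval 0.085 to 0.30, adjusted p = 0.0331 by edgeR). The call was kept in 9 of 13 alternatives. It was lost without control replicate 3 (adjusted p = 0.103), 4-OHT replicate 2 (0.175) or 4-OHT replicate 3 (0.114), and with the replicate number as a block (0.0604). In control ATII CM *SLC7A1* at 12.04 ± 0.474 CPM per kb and *SLC6A6* at 11.4 ± 0.783 overlapped between libraries, and in 4-OHT ATII CM *SLC6A6* stood higher, at 13.1 ± 0.636 against 10.3 ± 0.448. The genes were set side by side as the DEGs of the families, so this gap restates their calls and adds no result.

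**Figure D3:**
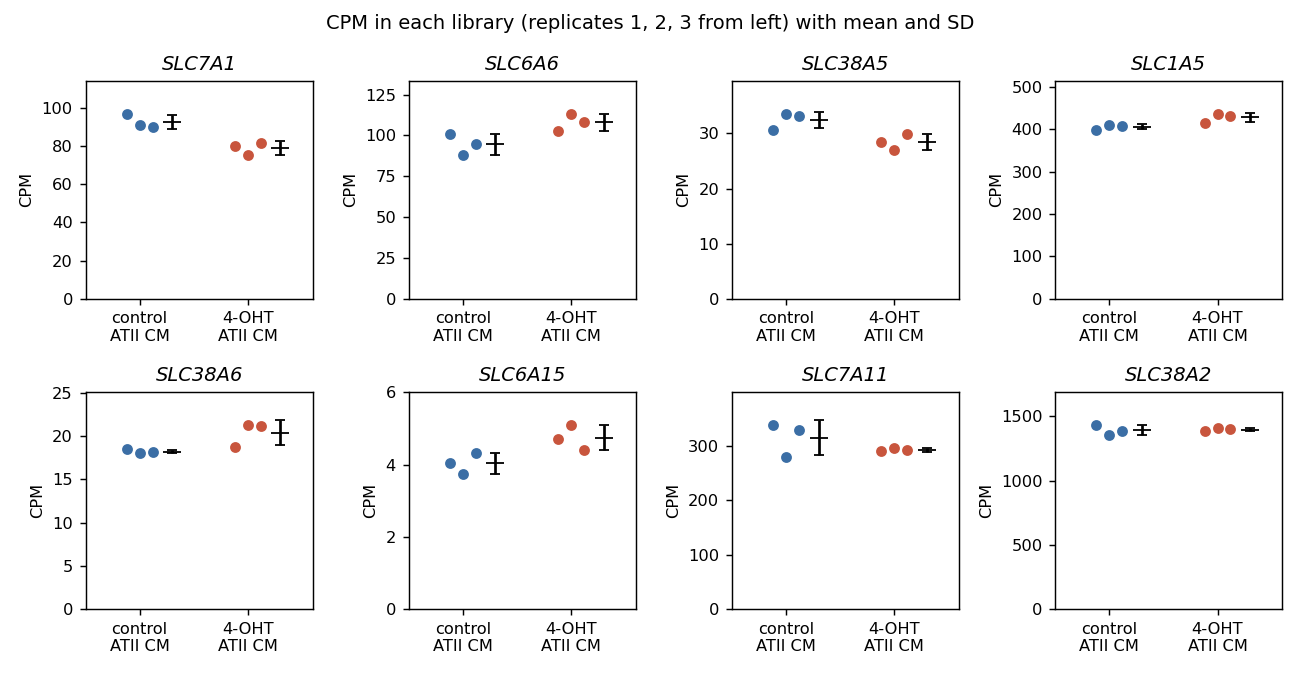
CPM in each library for transporter genes named in the text (y axis from 0, 1 panel per gene), with replicates 1, 2 and 3 from left to right in each group and the group mean and SD. The 2 groups do not overlap for *SLC7A1*, and for *SLC7A11* control replicate 2 lies at 278 CPM, below the other 2 control libraries at 338 and 328 CPM.

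The exchangers built on SLC3A2 did not differ beyond the spread between libraries when all 6 were used. *SLC3A2* (chr11:62856102-62888875) measured 275, 299 and 288 CPM in control and 268, 282 and 284 CPM in 4-OHT ATII CM, with overlapping groups and a log2 fold change of -0.047 (95% interval -0.13 to 0.034, adjusted p = 0.595), which was -0.018 without control replicate 2 and -0.079 without control replicate 1. *SLC7A5* (chr16:87830023-87869488), which imports leucine and other large neutral amino acids, measured 280.2, 292 and 289.6 CPM in control and 271, 282 and 276 CPM in 4-OHT ATII CM (log2 fold change -0.056, 95% interval -0.13 to 0.015, adjusted p = 0.437). The 2 partners stood at almost constant proportion, with a ratio of *SLC7A5* to *SLC3A2* per kb of 1.09 ± 0.0227 in control and 1.08 ± 0.0222 in 4-OHT ATII CM. The 5 light chain genes together stood at 1.76 ± 0.108 and 1.74 ± 0.0355 times the level of *SLC3A2*.

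*SLC7A11* (chr4:138164097-138242349) encodes xCT, the cystine and glutamate exchanger that supplies cysteine for glutathione. It measured 338, 278 and 328 CPM in control and 289, 296 and 292 CPM in 4-OHT ATII CM. Control replicate 2 lay below all of the 4-OHT libraries and the other 2 controls above them. The log2 fold change was -0.11 (SE 0.0533, 95% interval -0.22 to 0.006, adjusted p = 0.319), and without control replicate 2, which stood apart in the principal components, it was -0.19 (adjusted p = 0.000278 by edgeR). Whether *SLC7A11* was a DEG thus turned on 1 control library. Without control replicate 1 it was -0.055 (adjusted p = 0.687), and over all alternatives but that without control replicate 2 the adjusted p of *SLC7A11* was above 0.05.

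Of the remaining *SLC7* members, *SLC7A7* (y+LAT1), a light chain that exports cationic amino acids, averaged 5.72 ± 0.830 CPM in control and 6.84 ± 0.602 CPM in 4-OHT ATII CM, with an adjusted p of 0.312. *SLC7A6* (y+LAT2) averaged 25.9 and 25.3 CPM. It shares 44.4% of its exon bases with *SLC7A6OS* on the opposite strand, and since the strand setting of the counting is not given in the sources used here, reads of the 2 genes may not have been separated. *SLC7A14* averaged 35.5 and 33.4 CPM (adjusted p = 0.565). *SLC7A8* (LAT2) had only 78 counts over all 6 libraries, so that *SLC7A5* was by far the more abundant of the LAT1 and LAT2 genes. *SLC7A5* also shares 520 bases at 96.7% identity with the pseudogene *SLC7A5P1*, which had 134 counts.

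Within the *SLC1* family, the neutral amino acid exchangers far exceeded the glutamate transporters. *SLC1A5* (ENSG00000105281, chr19:46774883-46788594) measured 399.5, 411 and 408 CPM in control and 416, 436 and 433 CPM in 4-OHT ATII CM. The 3 libraries of 4-OHT ATII CM lay above the 3 control libraries. The difference was 5.45% (log2 fold change 0.077, SE 0.0314, 95% interval 0.010 to 0.14) and did not pass adjustment (adjusted p = 0.206 by edgeR, 0.0885 to 0.491 over the alternatives). *SLC1A5* shares 23.4% of its exon bases with a non-coding gene on the opposite strand, which had 31 counts. As for *SLC7A6*, their reads may not have been separated.

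*SLC1A4* (ASCT1), the closest relative of *SLC1A5* and a carrier of alanine, serine, cysteine and threonine, had the opposite sign. It measured 52.3, 49.9 and 52.5 CPM in control and 44.9, 50.6 and 45.7 CPM in 4-OHT ATII CM, with overlapping groups (log2 fold change -0.13, adjusted p = 0.158). The ratio of *SLC1A4* to *SLC1A5* per kb was 0.0629, 0.0584 and 0.0618 in control and 0.0519, 0.0558 and 0.0507 in 4-OHT ATII CM. These ratios did not overlap between the groups, and no test was made of them. Of the glutamate transporter genes *SLC1A1* (EAAT3) averaged 10.5 and 11.5 CPM (adjusted p = 0.472), *SLC1A7* 5.32 and 5.38 CPM and *SLC1A2* 2.01 and 2.09 CPM, and *SLC1A3* had 17 counts in all. Control replicate 2 was the lowest control library for *SLC1A7* (4.65 CPM) and *SLC1A2* (1.29 CPM), so the direction of these small differences leans on it.

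In the *SLC6* family the highest level per kb was that of *SLC6A9* (GlyT1, a glycine transporter), at 14.9 ± 0.321 CPM per kb in control and 14.8 ± 0.550 in 4-OHT ATII CM. It measured 74.9, 77.7 and 77.8 CPM in control and 74.0, 76.0 and 79.6 CPM in 4-OHT ATII CM. The groups overlapped fully, with a log2 fold change of -0.0031 (95% interval -0.089 to 0.083, adjusted p = 0.986) whose sign changed in 5 alternatives (0.0057 without control replicate 2). *SLC6A8*, the creatine transporter, averaged 58.8 ± 1.13 and 60.9 ± 3.13 CPM (adjusted p = 0.630). It shares 1988 bases at 96.4% identity with *SLC6A10P*, which had 1 count, so its level is uncertain where the counting could not place such reads. *SLC6A15*, a carrier of branched-chain amino acids and proline, measured 4.03, 3.75 and 4.32 CPM in control and 4.70, 5.09 and 4.41 CPM in 4-OHT ATII CM. Its groups did not overlap, but at this level the log2 fold change of 0.23 had an SE of 0.129 (adjusted p = 0.410).

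*SLC38A2* (ENSG00000134294, chr12:46358189-46372867), the most abundant of all the transporter genes, measured 1431, 1356 and 1382 CPM in control and 1380.5, 1404 and 1400.5 CPM in 4-OHT ATII CM. Each of the latter 3 lay within the range of the controls. The log2 fold change was 0.0055 with a 95% interval from -0.053 to 0.064 (adjusted p = 0.950), and it turned to -0.012 without control replicate 2. Its neighbour and relative *SLC38A1* (SNAT1) measured 289, 252 and 273 CPM in control and 271, 263 and 265 CPM in 4-OHT ATII CM (log2 fold change -0.029, 95% interval -0.12 to 0.062, adjusted p = 0.803). Without control replicate 2 its log2 fold change was -0.078 (adjusted p = 0.163), and without control replicate 1 it was 0.017. *SLC38A1* stood at 0.129 ± 0.00547 times the level of *SLC38A2* per kb in control and 0.126 ± 0.00313 times in 4-OHT ATII CM.

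*SLC38A5* (ENSG00000017483, chrX:48458537-48470256) encodes SNAT5, a carrier of glutamine, histidine, serine and glycine that can run in either direction. It measured 30.7, 33.5 and 33.1 CPM in control and 28.5, 26.9 and 29.9 CPM in 4-OHT ATII CM. The lowest control library lay just above the highest of 4-OHT ATII CM. The log2 fold change of -0.19 (SE 0.0572, 95% interval -0.31 to -0.066) did not pass adjustment (adjusted p = 0.0705 by edgeR), and passed in 1 of 13 alternatives, that without a filter on low counts (0.0440), with up to 0.266 in the others.

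*SLC38A6* measured 18.5, 18.1 and 18.1 CPM in control and 18.8, 21.3 and 21.2 CPM in 4-OHT ATII CM. The groups did not overlap, although replicate 1 of 4-OHT ATII CM lay close to the controls (log2 fold change 0.17, SE 0.0691, adjusted p = 0.215). Its exons overlap over 4.76% of their bases with those of *TRMT5* on the opposite strand. *SLC38A10* measured 161, 173 and 164 CPM in control and 156, 165 and 161 CPM in 4-OHT ATII CM, with overlapping groups and a log2 fold change of -0.047 (adjusted p = 0.597), or -0.018 without control replicate 2. *SLC38A7*, a lysosomal glutamine exporter, averaged 38.3 and 38.2 CPM, and *SLC38A4* 17.4 and 18.4 CPM (adjusted p = 0.706). For *SLC38A7* control replicate 2 was the lowest library, at 35.3 CPM. The controls of *SLC38A4* measured 16.4, 16.4 and 19.5 CPM.

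The carriers of the lysosomal membrane that act upstream of mTORC1 had values close to each other in both media. *SLC38A9*, an arginine sensor of mTORC1, measured 16.4, 16.01 and 15.4 CPM in control and 18.5, 15.6 and 16.8 CPM in 4-OHT ATII CM (log2 fold change 0.088, SE 0.0768, adjusted p = 0.629). It was 0.024 without 4-OHT replicate 1 and 0.15 without 4-OHT replicate 2. *SLC36A1*, a proton-coupled exporter of small amino acids, averaged 34.1 and 34.0 CPM (adjusted p = 0.960), and *SLC36A4* 26.0 and 28.1 CPM (adjusted p = 0.392). Of the *SLC43* family, *SLC43A1* (LAT3), a facilitated carrier of branched-chain amino acids, averaged 16.3 and 16.7 CPM and *SLC43A3*, whose product carries purine bases rather than amino acids, 6.94 and 6.98 CPM. Control replicate 2 was the lowest control library for *SLC43A1* (15.1 CPM) and the highest for *SLC43A3* (7.84 CPM). *SLC43A3* shares 29.9% of its exon bases with another gene on the same strand, which had 0 counts. Reads there may not have been assigned to it.

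*SLC43A2* (LAT4) had 28 counts over all libraries, and this number cannot be read as its level. It is the only member with a copy on an alternate contig of the assembly. *SCARF1* and *RILP*, the next genes on chromosome 17, had 0 counts each, and *PRPF8*, a core splicing factor that all cells need, had 1. On its other side *PITPNA* had 13515 and *MYO1C* 63383.

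The start regions of the transporter genes were searched, since ATF4 and MYC, the latter a driver of cell growth, act on several of them in other cells. The first motif, TGATGNAA, is the core of the C/EBP-ATF response element that ATF4 binds with C/EBP proteins, and the second, CACGTG, is the E-box of MYC, USF and TFE factors. Both strands were read in RefSeq windows (GRCh38.p14) of 250 bases before to 50 after each annotated start, and no match of one overlapped a match of the other. Windows of 29 of the 37 members were searched (not of *SLC1A2*, *SLC6A6*, *SLC6A15*, *SLC7A2*, *SLC7A3*, *SLC7A11*, *SLC38A3* and *SLC43A3*). That a gene was not searched does not show that RefSeq has no window for it. TGATGNAA was present in 6 of the 50 windows of members (12%) and in 3.62% of all 35116 windows. CACGTG was present in 10 of the 50 (20%) and in 7.26% of all windows. The matches below are those of the members on which the text turns, 5' to 3' on the strand of the gene, with the motif in capitals.
*SLC7A1*, chr13:29595663-29595692, minus strand: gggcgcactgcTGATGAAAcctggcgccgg
*SLC1A4*, chr2:64989381-64989410, plus strand, motif on the other strand: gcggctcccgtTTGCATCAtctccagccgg
*SLC3A2*, chr11:62881725-62881748, plus strand, motif on the other strand: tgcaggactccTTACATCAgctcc
*SLC38A1*, chr12:46266502-46266531, minus strand: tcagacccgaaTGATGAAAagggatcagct
*SLC1A5*, chr19:46784893-46784922, minus strand: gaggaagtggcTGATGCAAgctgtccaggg
*SLC1A5*, chr19:46787327-46787354, minus strand, E-box: gcgggagtggtCACGTGgacaggacggg
*SLC7A5*, chr16:87869621-87869648, minus strand, E-box: gccggacgacgCACGTGctccgagctgg
*SLC38A5*, chrX:48470450-48470477, minus strand, E-box: cctgtagcggaCACGTGgcttgcctggg

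In *SLC7A1* the motif began 7 bases after the annotated start, in *SLC1A4* 7 and in *SLC38A1* 4 bases before it. The RefSeq starts of the *SLC1A4*, *SLC3A2*, *SLC38A1* and both *SLC1A5* windows lie inside the span of the gene in the deposited table. *SLC1A3* also held TGATGNAA. The 5 of these 6 members with at least 1 CPM had log2 fold changes of -0.23 for *SLC7A1*, -0.13 for *SLC1A4*, -0.047 for *SLC3A2*, -0.029 for *SLC38A1* and 0.077 for *SLC1A5*, of which that of *SLC7A1* alone passed the test. A match is a description of the letters in these windows and not a binding site.

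Genes that work with these transporters were counted in 5 related lists. Of their 111 tested genes, 7 were upregulated and 4 downregulated DEGs (9.91%), beside 5.72% of all genes tested and 8.28% of those with at least 1 CPM. The share differed from list to list, and no test was made of these differences. The lists were chosen with earlier results of these data known, so their shares are not a result about the lists. In the list of the GCN2 and ATF4 response, 1 of 24 genes was a DEG (4.17%, near the 5.72% of all genes) and the median log2 fold change was 0.0044. *ATF4* measured 594, 587 and 595 CPM in control and 604, 610.5 and 613 CPM in 4-OHT ATII CM. The groups did not overlap, but the log2 fold change of 0.042 did not pass adjustment (SE 0.0279, adjusted p = 0.501 by edgeR). The exception was *CEBPB*, which encodes the transcription factor C/EBP beta and rose from 147 ± 2.25 to 161 ± 3.97 CPM (log2 fold change 0.13, adjusted p = 0.0377), a call kept in 7 of 13 alternatives.

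Of 33 genes of amino acid sensing upstream of mTORC1, 1 was a DEG (3.03%, against 5.72% of all genes). *SESN3*, whose product belongs to the sestrins that restrain mTORC1, measured 32.9, 31.4 and 33.0 CPM in control and 41.2, 39.3 and 40.9 CPM in 4-OHT ATII CM. The groups stood well apart, with a log2 fold change of 0.32 (SE 0.0475, adjusted p = 0.000717), and *SESN3* was a DEG in all 13 alternatives. Among 21 tested carriers of other families (4.76% DEGs) the single DEG was *SLC25A22*, a mitochondrial glutamate carrier, which fell from 30.3 ± 1.76 to 25.6 ± 1.25 CPM (log2 fold change -0.24, adjusted p = 0.0277, kept in 10 of 13).

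Of 22 enzymes that use glutamine, glutamate, proline, arginine or branched-chain amino acids, 2 rose and 2 fell. The DEGs were 18.2% of the list, against 5.72% of all genes and 8.28% of those with at least 1 CPM. *GLUL*, glutamine synthetase, measured 126, 127 and 116 CPM in control and 144, 139 and 142 CPM in 4-OHT ATII CM, and its log2 fold change was 0.21 (SE 0.0404, adjusted p = 0.00552). *ODC1*, ornithine decarboxylase, which makes polyamines from the ornithine that arginine yields, measured 104, 112 and 99.8 CPM in control and 87.8, 86.5 and 86.4 CPM in 4-OHT ATII CM, and its log2 fold change was -0.28 (SE 0.0433, adjusted p = 0.00110). For both genes the groups did not overlap, and both were DEGs in all 13 alternatives. *ASS1*, which makes argininosuccinate on the way to arginine, rose from 51.7 ± 0.655 to 57.8 ± 1.97 CPM (adjusted p = 0.0299, kept in 8 of 13). *BCAT1*, the cytosolic branched-chain aminotransferase, fell from 268 ± 16.2 to 241 ± 9.97 CPM with overlapping groups (adjusted p = 0.0454, kept in 9 of 13).

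Of 12 tested ubiquitin ligases, adaptors and partners of transporters, 3 rose and 1 fell. The DEGs were 33.3% of the list, against 5.72% of all genes and 8.28% of those with at least 1 CPM. This list too was chosen with earlier results of these data known, so its share is not a result about the list. The arrestin-related adaptors *TXNIP* and *ARRDC4* led the list, and proteins of this family help to take transporters off the cell surface. *TXNIP* measured 380.3, 348 and 384 CPM in control and 526, 517 and 531 CPM in 4-OHT ATII CM (log2 fold change 0.50, SE 0.0372, adjusted p = 2.66e-06 by edgeR). *ARRDC4* rose from 32.2 ± 1.59 to 41.9 ± 1.98 CPM (log2 fold change 0.38, adjusted p = 0.000414). Both stood well apart between the groups and were DEGs in all 13 alternatives. *ARL6IP5*, which encodes a binding partner of the glutamate transporter EAAT3, rose from 183 ± 2.02 to 199 ± 2.88 CPM (adjusted p = 0.0353, kept in 7 of 13), and *ANXA2*, which encodes a membrane-binding annexin, fell from 1498 ± 59.7 to 1351 ± 30.8 CPM (adjusted p = 0.00931, kept in 11 of 13).

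**Figure D4:**
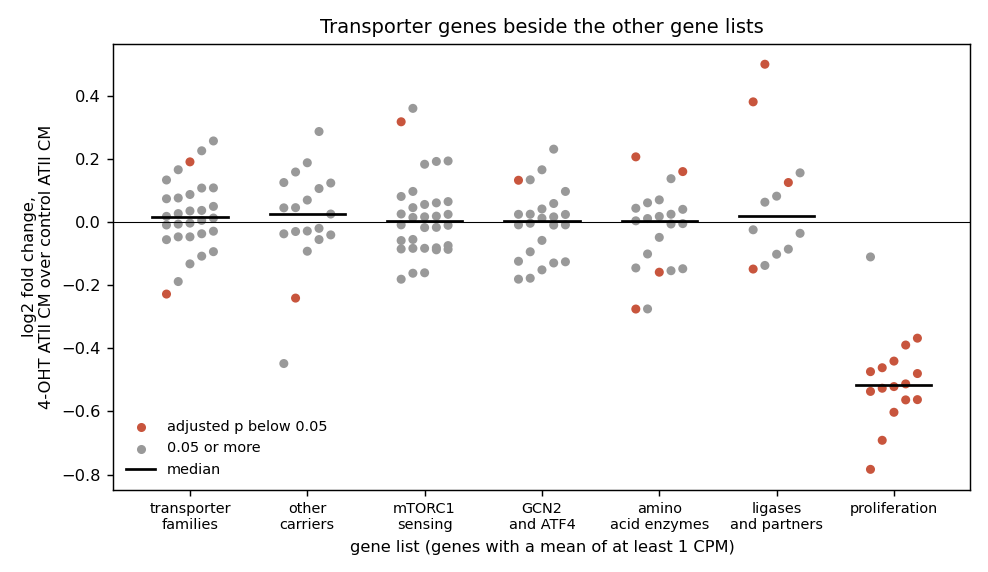
Log2 fold change of 4-OHT over control ATII CM on the y axis for genes with a mean of at least 1 CPM, 1 point per gene, for the transporter genes and the other gene lists, with the median as a line and DEGs in colour. The transporter genes lie close around 0, and the proliferation markers all lie below 0, with a median of -0.52.

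**Figure D5:**
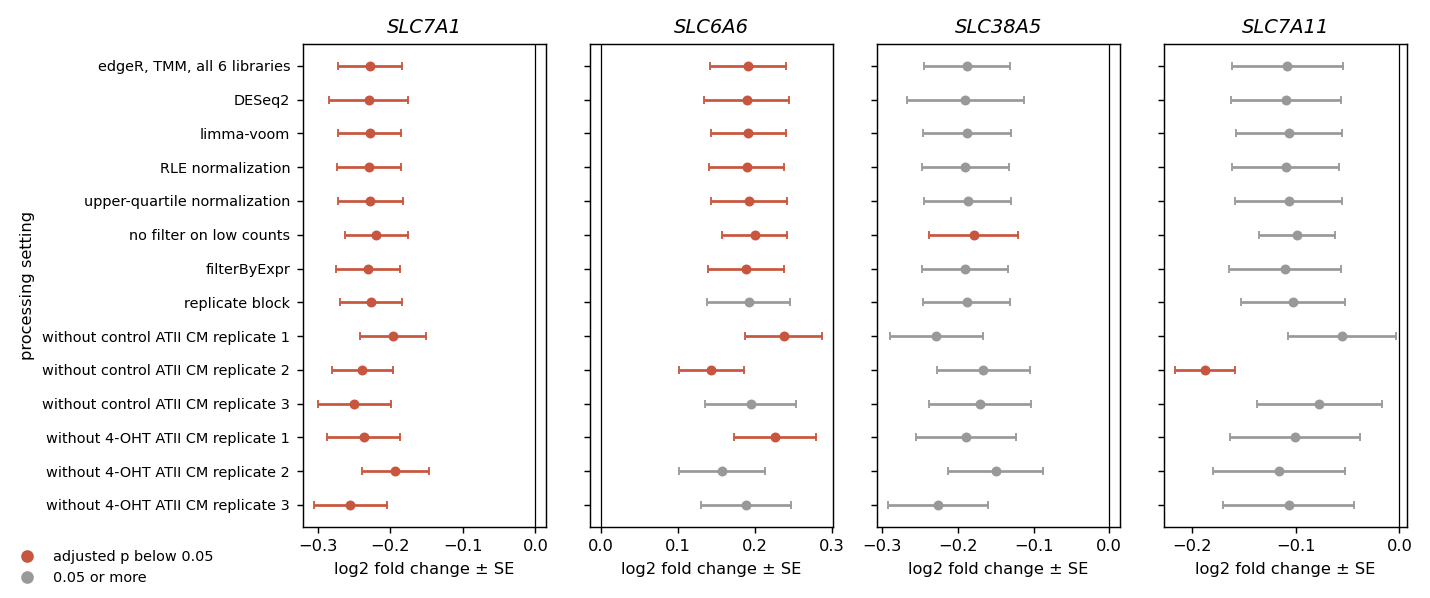
Log2 fold change with its SE on the x axis for 4 transporter genes under each processing setting, coloured by whether the adjusted p was below 0.05. *SLC7A1* stays coloured throughout, *SLC6A6* loses the call in 4 settings, *SLC38A5* gains it in 1 and *SLC7A11* gains it without control replicate 2.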

How the data were processed

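RNA-Seq of MRC5 cells in control ATII CM (3 libraries) and 4-OHT ATII CM (3 libraries) was analysed. Per the submitters' processing notes, the authors used Trim Galore for trimming, HISAT2 2.1.0 for alignment to GRCh38 and featureCounts 1.6.5 for counting. The deposited values are raw counts per gene without normalization, with the merged exon length of each gene in bases. The strand setting and annotation release are not given in the sources used here. Its 58721 lines hold 58676 gene identifiers, and for the 45 that occur on both X and Y the counts were summed. Symbols came from GENCODE release 44, matched for 18962 of the 19072 genes tested, and positions are those of the deposited table.

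Genes with at least 10 counts summed over 6 libraries were tested with edgeR 4.0.16 (R 4.3.3), TMM normalization and a quasi-likelihood test whose design held only the group. P values were adjusted over all genes tested by the Benjamini-Hochberg method (threshold 0.05). SEs were computed as the log2 fold change over the root of F. CPM use TMM-scaled library sizes. The square root of the common dispersion was 4.36%. Counts of replicates were not alike within sampling noise (chi-square between 2.12 and 6.03 per degree of freedom), so none was counted as a repeat of another.

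Alternatives were DESeq2 1.42.0, limma-voom (limma 3.58.1), RLE and upper-quartile normalization, no filter, filterByExpr, the replicate number as a block and leaving out each library. Transcripts were aligned with minimap2 2.31 to 261 alternate contigs (coverage of at least 90%, identity of at least 98%). Motifs were searched with Python 3.11.15.

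The members, gene lists and tests were chosen with earlier results of these data known. Members named with full values are the DEGs, those whose groups do not overlap, the 10 with the highest level per kb, and *SLC7A5*, *SLC3A2*, *SLC7A11*, *SLC1A5*, *SLC38A2* and *SLC38A9*. *SLC1A4* was added as the closest relative of *SLC1A5*, after its values were seen. Of the related lists, DEGs were named, and *ATF4* was added after its values were seen. Marker lists of endothelial cells (1 of 3 tested genes a DEG, *TEK*) and immune cells (0 of 1 tested by edgeR) were also counted. Some items are not reported here.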

Additional observations from a re-analysis of the deposited data

How the results depend on the processing

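Of the 37 transporter genes, 1 was upregulated and 1 downregulated in the analysis as reported. With no filter on low counts 2 were downregulated (*SLC7A1* and *SLC38A5*), and 875 genes in all were upregulated instead of 563. With the replicate number as a block 0 members were upregulated (*SLC6A6*, adjusted p = 0.0604), and 502 genes in all were upregulated and 483 downregulated. Deviations from the group means correlated at -0.0145, -0.104 and -0.0931 between libraries of the same number, over 9691 genes. Such values cannot tell whether libraries of the same number were made together, and the labels do not say. Leaving out 1 library at a time gave 0 to 1 upregulated members (0 without control replicate 3, 4-OHT replicate 2 or 4-OHT replicate 3) and 1 to 2 downregulated (2 without control replicate 2, where *SLC7A11* was added). It gave 292 to 691 upregulated and 243 to 837 downregulated genes in all, with the fewest without 4-OHT replicate 2, and 4 to 9 upregulated and 1 to 8 downregulated genes of the related lists. The median log2 fold change of the members ranged from -0.018 to 0.025. The sign turned for *SLC6A9* with no filter (log2 fold change 0.0059). Without 1 library the log2 fold change ranged from -0.033 to 0.020 for *SLC6A9*, from -0.078 to 0.017 for *SLC38A1* (positive without control replicate 1), from -0.059 to 0.089 for *SLC7A2* and from -0.012 to 0.026 for *SLC38A2* (both negative without control replicate 2). Except for the library left out or the genes removed by the filter, the cause of these changes was not tested. DESeq2, limma-voom, both other normalizations and filterByExpr kept both member calls. For 6 of the 7 members below 1 CPM a change of the sizes seen in the others was not detectable at this depth. The counts of the other, *SLC43A2*, cannot be read as its level. Some members above 1 CPM also had large SEs, such as 0.223 for *SLC1A2*, 0.152 for *SLC6A16*, 0.129 for *SLC6A15* and 0.126 for *SLC7A7*. For these the lack of a call does not show that they were unchanged.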
